A study of Caenorhabditis elegans with 3 samples.

Results

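Small nucleolar RNA (snoRNA) genes that lie inside protein-coding genes were examined for EGL-27 occupancy. A member was a gene of biotype snoRNA, in the Ensembl annotation of the WBcel235 genome, that lay wholly inside a protein-coding gene body on the same strand. The rule chose 183 of 346 annotated snoRNA genes, in 159 host genes. Another 33 snoRNA genes were nested on the opposite strand only, and 130 lay outside protein-coding genes. The members were 54 to 325 bp long, with a median of 128 bp. Of the 183, 143 lay in host introns and 40 overlapped a host exon. Their 5′ ends lay 33 to 46394 bp from the outermost annotated 5′ end of the host, with a median of 2066 bp.

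SnoRNAs guide the chemical modification of ribosomal and other RNAs. The box C/D class directs methylation of the ribose, and the H/ACA class directs the conversion of uridine to pseudouridine. In animals many snoRNA genes sit in introns and are cut from the spliced-out intron, so that the host promoter makes both RNAs. In C. elegans some nested small RNA genes have also been described with promoters of their own, some of them read by RNA polymerase III, whose internal or upstream A box and B box are the elements that also mark transfer RNA genes. EGL-27 is related to the MTA subunits of the chromatin-remodelling and deacetylase complex NuRD.

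The study mapped EGL-27 by chromatin immunoprecipitation and sequencing (ChIP-seq) in whole L1 larvae of both sexes, of strain OP177 with genotype unc-119(ed3) III and the integrated transgene wgIs177. All 3 biological replicates carried the same genotype and form 1 group, with no second condition. The transgene supplies EGL-27 with a GFP-FLAG tag at its C terminus, beside the worm's own egl-27 gene, and the age of the worms is labelled unknown. The stock of replicates 1 and 2 was from the strain centre, with a labelled size range of 150-350, while the worms of replicate 3 were the laboratory's own and their chromatin was sheared by a microtip sonicator. The files were peak lists: 15286, 30000 and 30000 relaxed peaks in replicates 1, 2 and 3, 23218 relaxed peaks in the pooled replicates, and 705 peaks that passed the authors' irreproducible discovery rate (IDR) threshold. A relaxed list holds background peaks on purpose. The lists of replicates 2 and 3 hold the same round number of peaks, with lowest signals of 3.914 and 3.063 against 2 in replicate 1, so they may have been cut at that length, which was not tested. A missing relaxed summit then means only that no listed peak stood there. Signal is the height that the authors' peak caller gave each peak, and rank 1 is the highest signal of a list. The depth of the libraries is unknown here, and whole worms do not show in which cells a summit arose. No untagged strain was used here, so occupancy by the tagged protein cannot be told apart from signal that untagged worms would give at the same places.

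The following 4 members had an IDR summit within 200 bp of the snoRNA 5′ end, and their sequences show what lies under those summits. Each line gives the 100 bases upstream in lower case and the snoRNA gene in capitals, 5′ to 3′ on the strand of the gene, from the ce11 (WBcel235) genome. ZK994.7 was read from chrV:8500479-8500645 on the plus strand, M106.6 from chrII:10840217-10840391 on the plus strand, D1046.6 from chrIV:8927165-8927393 on the plus strand and smy-2 from chrIV:9511395-9511566 on the minus strand.
ZK994.7: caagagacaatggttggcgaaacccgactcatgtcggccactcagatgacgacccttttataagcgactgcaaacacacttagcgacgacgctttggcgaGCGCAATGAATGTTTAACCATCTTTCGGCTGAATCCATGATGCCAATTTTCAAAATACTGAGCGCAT
M106.6: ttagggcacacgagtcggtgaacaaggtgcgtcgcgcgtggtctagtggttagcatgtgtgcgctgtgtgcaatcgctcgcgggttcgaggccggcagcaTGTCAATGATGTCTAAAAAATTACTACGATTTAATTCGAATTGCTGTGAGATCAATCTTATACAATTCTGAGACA
D1046.6: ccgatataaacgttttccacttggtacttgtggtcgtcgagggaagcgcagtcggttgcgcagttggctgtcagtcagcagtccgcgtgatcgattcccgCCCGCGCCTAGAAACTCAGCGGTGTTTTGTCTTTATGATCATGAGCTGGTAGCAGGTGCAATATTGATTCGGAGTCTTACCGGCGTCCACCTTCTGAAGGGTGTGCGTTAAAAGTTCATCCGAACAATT
smy-2: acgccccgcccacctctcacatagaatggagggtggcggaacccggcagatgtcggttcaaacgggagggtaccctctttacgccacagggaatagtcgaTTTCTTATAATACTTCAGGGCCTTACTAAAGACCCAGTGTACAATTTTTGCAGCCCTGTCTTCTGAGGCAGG
The first pair lay far from any annotated 5′ end of their hosts, whereas the second pair also lay in front of an internal 5′ end of the host. The name smy is that of the SmY RNAs, small nematode RNAs bound by Sm proteins and linked to trans-splicing, while the annotation gives smy-2 the biotype snoRNA.

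EGL-27 summits of the IDR list were found near 15 of the 183 nested snoRNA genes. The window ran from 1000 bp upstream to 500 bp downstream of the snoRNA 5′ end. The 15 genes make 8.2% of the members, with an exact 95% binomial interval of 4.66 to 13.2 that covers counting error only. Over all 31563 annotated genes other than piRNA genes the share was 2.45%, and it was 2.01% of 19985 protein-coding genes. Among snoRNA genes outside protein-coding genes 15 of 130 had an IDR summit (11.5%, interval 6.6 to 18.3), which overlaps the interval of the members. Other non-coding genes nested on the same strand reached 3.28% (46 of 1403, interval 2.41 to 4.35). The members are not independent of one another: the 15 genes shared 12 summits, and 3 summits lay in the windows of 2 members each. The count depends on the window and on single libraries: it was 4 within 200 bp of the 5′ end, and 6 when the summit also had to lie in the top lists (the 705 highest signals) of replicates 1 and 2.

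Most of these summits stood near an annotated 5′ end of the host gene, internal 5′ ends included. Of the 15 members, 13 had their IDR summit inside the same window around such a 5′ end. With only the outermost 5′ end of each host counted, 6 of the 15 had it outside the host window. With all host 5′ ends counted, the 2 outside were M106.6 and ZK994.7, which make 1.09% of the members (interval 0.133 to 3.89). By the same count 2.07% of the other nested non-coding genes had an IDR summit outside the windows of their hosts, so the members did not exceed that background. The summit lay upstream of the snoRNA 5′ end in 14 of 15 members, at a median distance of -505 bp. It was nearer to the snoRNA 5′ end than to any host 5′ end in 5 of them. Neither M106.6 nor ZK994.7 had its summit in the top lists of both replicates 1 and 2, so the count outside host windows was 0 without replicate 3.

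**Figure D1:**
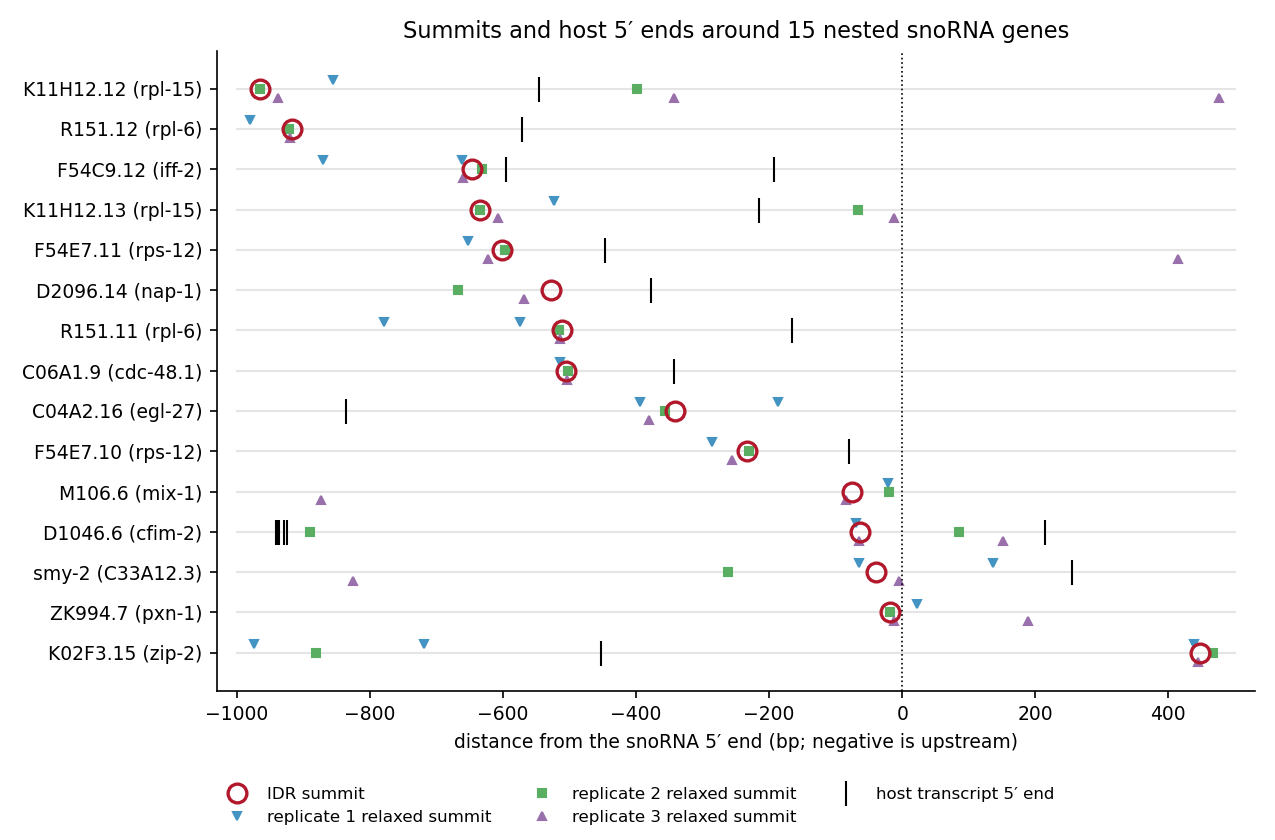
Distance in bp of the IDR summit (red circle) and of each relaxed summit (triangles and squares, by replicate) from the 5′ end of 15 nested snoRNA genes, with annotated host transcript 5′ ends as black bars. For M106.6, D1046.6, smy-2 and ZK994.7 the IDR summit lies between -76 and -18 bp, and for the remaining members it lies farther away, up to -965 bp upstream and 448 bp downstream.

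The hosts themselves were bound more often than protein-coding genes in general. An IDR summit lay in the 5′ window of 23 of 159 hosts (14.5%), against 444 of 19985 protein-coding genes (2.22%), and a pooled relaxed summit in 120 hosts (75.5%) against 39.2%. A summit near any annotated 5′ end of a gene counted, so genes with more 5′ ends had more sequence searched, which was not adjusted for. The 23 bound hosts held 31 members, and the host summit fell in the window of a member in 10 hosts and of none in 13. Members near a host 5′ end had an IDR summit more often: 10 of the 53 members that began inside a host 5′ window had an IDR summit (18.9%), against 5 of 130 that began outside (3.85%). The windows of the 53 overlap a host window, so a host summit can be counted for them through position alone. Members farther away can miss the host summit. The heat-shock 70 family gene hsp-1, for example, had an IDR summit of signal 76.0 at -419 bp, while its member began 1087 bp into the gene and had none. The elongation factor gene eef-1G had one of signal 38.8 at -57 bp, and its 2 members began at 979 and 1771 bp. In alg-1, which encodes an Argonaute protein, the member began 89 bp from the outermost host 5′ end and had no IDR summit. An IDR summit of signal 56.3 stood in front of another alg-1 5′ end.

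Ribosomal protein genes held 6 of the 15 members. Of 19 members in 13 cytosolic ribosomal protein genes, taken by names starting with rpl or rps, 6 had an IDR summit (31.6%) and 18 a pooled relaxed summit (94.7%). In other hosts the counts were 9 of 164 (5.49%) and 88 of 164 (53.7%). Adding ubl-1 and Y37E3.8, which encode ribosomal proteins under other names and were added after the values were seen, gave 6 of 23 (26.1%) and 22 of 23 (95.7%). The 6 members belonged to 3 genes, rps-12 of the small subunit and rpl-6 and rpl-15 of the large subunit, with 1 summit for each pair of members. These genes are short and their snoRNAs lie close behind the promoter, so both windows overlap. Counted by host, 3 of 13 ribosomal protein hosts had an IDR summit in their 5′ window, against 23 of all 159 hosts (14.5%).

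In rps-12 the summit had an IDR signal of 82.2 (rank 64) and lay 154 bp upstream of the host 5′ end, 234 bp upstream of F54E7.10 and 601 bp upstream of F54E7.11. The relaxed signal there was 14.4 in replicate 1, 28.51 in replicate 2 and 32.4 in replicate 3, at ranks 123, 90 and 157. All 3 replicates thus placed it in their top lists. This summit also lay in the 5′ window of the neighbouring gene ska-3. In rpl-6 the summit (IDR signal 49.1, rank 251) lay 345 bp upstream of the host, 511 bp upstream of R151.11 and 917 bp upstream of R151.12. Its signal was 8.39, 13.02 and 24.2 in replicates 1, 2 and 3, at ranks 530, 1005 and 311. Replicate 2 was the one that did not hold it in its top list. The third member of rpl-6, R151.13, began 953 bp from the host 5′ end and had no IDR summit, but had relaxed summits in the pooled list and in replicate 2. In rpl-15 the summit (IDR signal 41.5, rank 389) lay 419 bp upstream of the host, 634 bp upstream of K11H12.13 and 965 bp upstream of K11H12.12. It also lay in the 5′ window of the neighbouring gene K11H12.8. The replicate signals were 14.9, 8.23 and 21.2, at ranks 109, 5654 and 423, so replicate 2 was far below the others. K11H12.13 also had a weaker pooled summit at -73 bp (signal 13.5, rank 6000). It lay 142 bp downstream of the host 5′ end, inside the host window, and also in the window of K11H12.12.

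The sequences around the host summits of rps-12, rpl-6, rpl-15 and egl-27 are given because these hosts carry 7 of the 15 members. Each line holds 101 bases centred on the IDR summit, on the strand of the snoRNA gene, in ce11: chrIII:5679094-5679194 on the plus strand, chrIII:7208052-7208152 on the plus strand, chrIV:654945-655045 on the minus strand and chrII:6842849-6842949 on the plus strand. The capitals in the last line mark TTATCA, the reverse complement of the GATA-factor motif TGATAA.
rps-12: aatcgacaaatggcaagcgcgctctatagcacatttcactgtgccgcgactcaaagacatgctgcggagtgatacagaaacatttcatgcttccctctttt
rpl-6: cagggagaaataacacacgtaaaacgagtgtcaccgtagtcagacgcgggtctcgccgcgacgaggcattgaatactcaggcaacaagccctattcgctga
rpl-15: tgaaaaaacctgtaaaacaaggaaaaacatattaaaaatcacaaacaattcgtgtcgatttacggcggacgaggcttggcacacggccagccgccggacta
egl-27: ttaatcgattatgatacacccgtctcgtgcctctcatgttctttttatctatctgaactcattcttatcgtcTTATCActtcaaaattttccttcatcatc
The egl-27 summit was the only one of the 12 with this motif within 50 bp (8.33%). At the other IDR summits the motif was found for 35 of 692 (5.06%), so 1 match does not set the 12 apart.

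The highest signal at any member belonged to C04A2.16, at 6843240 to 6843363 on chromosome II, whose host is egl-27 itself. Its IDR summit had a signal of 169.3 and rank 4, 341 bp upstream of the snoRNA and 495 bp downstream of an internal egl-27 5′ end. The signal was 40.5, 57.4 and 80.4 in replicates 1, 2 and 3, at ranks 7, 26 and 4, high in every list. Replicate 1 had a further summit at -187 bp with a signal of 12.9. The outermost 5′ end of egl-27 is 8232 bp upstream of this snoRNA gene. The worms carry egl-27 sequence both in the genome and in wgIs177, and reads from these copies cannot be told apart.

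The remaining members with a summit near a host 5′ end lay in genes of varied roles. F54C9.12 lies in iff-2, a homologue of translation factor eIF5A, and its summit (84.1, rank 60) was 647 bp upstream of the snoRNA and 52 bp upstream of the host. It also lay in the 5′ window of a neighbour, F54C9.14. The replicate signals were 23.6, 21.1 and 37.7, at ranks 30, 212 and 104. C06A1.9 lies in cdc-48.1, which encodes an AAA ATPase of the p97 family, with a summit (83.7, rank 61) at -505 bp from the snoRNA and -162 bp from the host. Its replicate signals were 10.02, 37.9 and 36.0, at ranks 328, 45 and 118, so replicate 1 was lowest although still inside its top list. K02F3.15 lies in the bZIP factor gene zip-2 and was the only one of the 15 with its summit downstream of its 5′ end. That summit (57.9, rank 173) lay at 448 bp, 205 bp before another zip-2 5′ end, with signals of 13.4, 15.5 and 28.1 and inside all 3 top lists. D2096.14 lies in nap-1, which encodes a nucleosome assembly protein, with a summit (33.0, rank 646) at -528 bp from the snoRNA and -150 bp from the host. Replicate 1 had no relaxed summit in the window, replicate 2 had one of signal 9.52 lying 140 bp away from the IDR summit, and replicate 3 had one of 18.7. This summit too lay in the window of a neighbour, praf-3.

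M106.6 and ZK994.7 were the members with an IDR summit outside every host window. M106.6, at 10840317 to 10840391 on chromosome II, lies in mix-1, which encodes a condensin subunit. Its summit (45.1, rank 313) was 76 bp upstream of the snoRNA and 15995 bp downstream of the host 5′ end. The replicate signals were 5.68, 19.2 and 18.8 at ranks 1633, 264 and 549, and the summits lay at -22, -20 and -84 bp. Replicate 1 was thus low in its list, while the other two held the peak in their top lists. ZK994.7, at 8500579 to 8500645 on chromosome V, lies in pxn-1, which encodes a peroxidasin. Its summit (39.0, rank 459) was 18 bp upstream of the snoRNA and 5672 bp downstream of the host 5′ end. The replicate signals were 9.21, 10.5 and 21.6 at ranks 411, 2306 and 406, with summits at 22, -19 and -12 bp. Here replicate 2 was the low one. Both members had a relaxed summit within 200 bp of the 5′ end in all 3 replicates.

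For D1046.6 and smy-2 the snoRNA and an internal host 5′ end could not be separated. D1046.6, at 8927265 to 8927393 on chromosome IV, lies in cfim-2, a homologue of a cleavage factor subunit of messenger RNA 3′ end formation. The summit (33.9, rank 605) was 63 bp upstream of the snoRNA and 278 bp upstream of an internal 5′ end, with the outermost host 5′ end 941 bp upstream of the snoRNA. The replicate signals were 14.2, 13.2 and 10.2, at ranks 129, 938 and 2282, and the replicate 2 summit lay 148 bp from the IDR summit. The 5′ ends of a pseudogene and of the non-coding RNA D1046.11 lay within 200 bp of it as well. For smy-2, at 9511395 to 9511466 on chromosome IV in C33A12.3, the summit (31.9, rank 691) was 40 bp upstream of the gene and 296 bp upstream of an internal host 5′ end. It also lay in the 5′ window of a neighbouring gene, C33A12.4. Replicate 1 had a signal of only 2.51 at its nearest summit (rank 11167). A stronger replicate 1 peak of 7.55 (rank 722) also covered the IDR summit, with its own summit 137 bp downstream of the snoRNA 5′ end. Replicate 2 had 10.9 at a summit 222 bp away, and replicate 3 had 20.8 (rank 441). Only replicate 3 thus held this peak in its top list. The replicate 2 summit lay within 200 bp of the 5′ end of smy-1, a neighbouring gene of the same name class.

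The replicates did not rank the 15 members alike. The peak was in the top list of all 3 replicates for 6 members, of 2 for 6 and of 1 for 3. Replicate 1 held 12 of them in its top list, replicate 2 held 7 and replicate 3 held 14. The median distance between the IDR summit and the replicate summit was 52 bp in replicate 1, 5 bp in replicate 2 and 14 bp in replicate 3. Counted without the IDR list, 13 members had a top-list summit in the window in at least 2 replicates (7.1%, interval 3.84 to 11.8), against 1.74% of all genes. This count rests on replicates 1 and 3: requiring both remaining top lists gave 7 members without replicate 1, 12 without replicate 2 and 6 without replicate 3, and within 200 bp of the 5′ end it was 3. Single replicates gave 17, 11 and 16 members, a mean of 8.01% ± 1.76 (SD, n = 3), and the same measure was 1.81% ± 0.157 (SD, n = 3) for protein-coding genes.

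**Figure D2:**
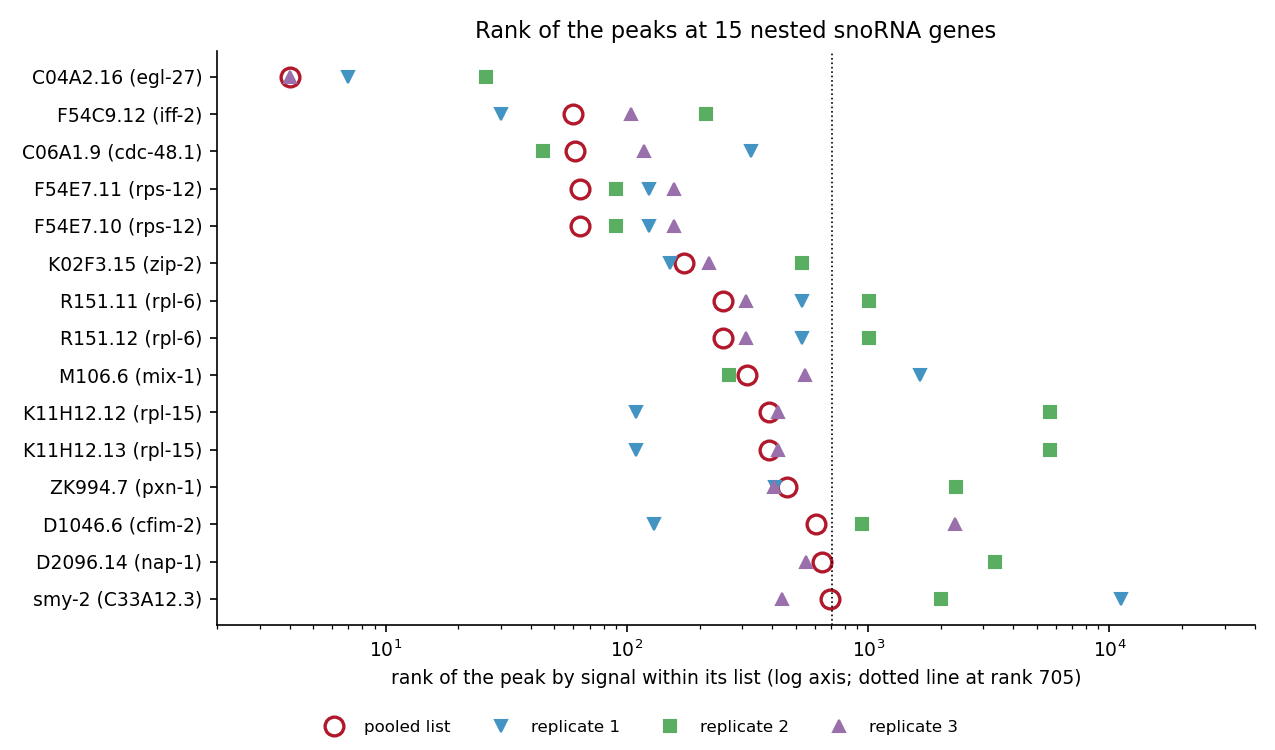
Rank by signal, on a log axis, of the peak at each of the 15 members in the pooled list and in each replicate, with a dotted line at rank 705. Only C04A2.16 is within the first 30 peaks of every list, and for rpl-15 members and smy-2 a replicate lies far to the right, at ranks 5654 and 11167. Each replicate point is the relaxed summit nearest to the IDR summit, so a stronger replicate 1 peak at smy-2 (rank 722) is not drawn.

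Relaxed summits were common near the members. The pooled list had one in the window of 106 of 183 members (57.9%, interval 50.4 to 65.2), against 37.6% of all genes. In replicate 1 the count was 81 (44.3%) against 25.6%, in replicate 2 it was 109 (59.6%) against 41.4%, and in replicate 3 it was 118 (64.5%) against 44.1%. The members were thus above the share of all genes in each replicate. The mean over replicates was 56.1% ± 10.5 (SD, n = 3), that of protein-coding genes 36% ± 9.7 and that of snoRNA genes outside protein-coding genes 64.6% ± 11.5. All 3 replicates had a relaxed summit in the window of 50 members (27.3%, interval 21.0 to 34.4), against 11.0% of all genes. A further 52 members had one in 2 replicates, 54 in 1 and 27 in none.

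**Figure D3:**
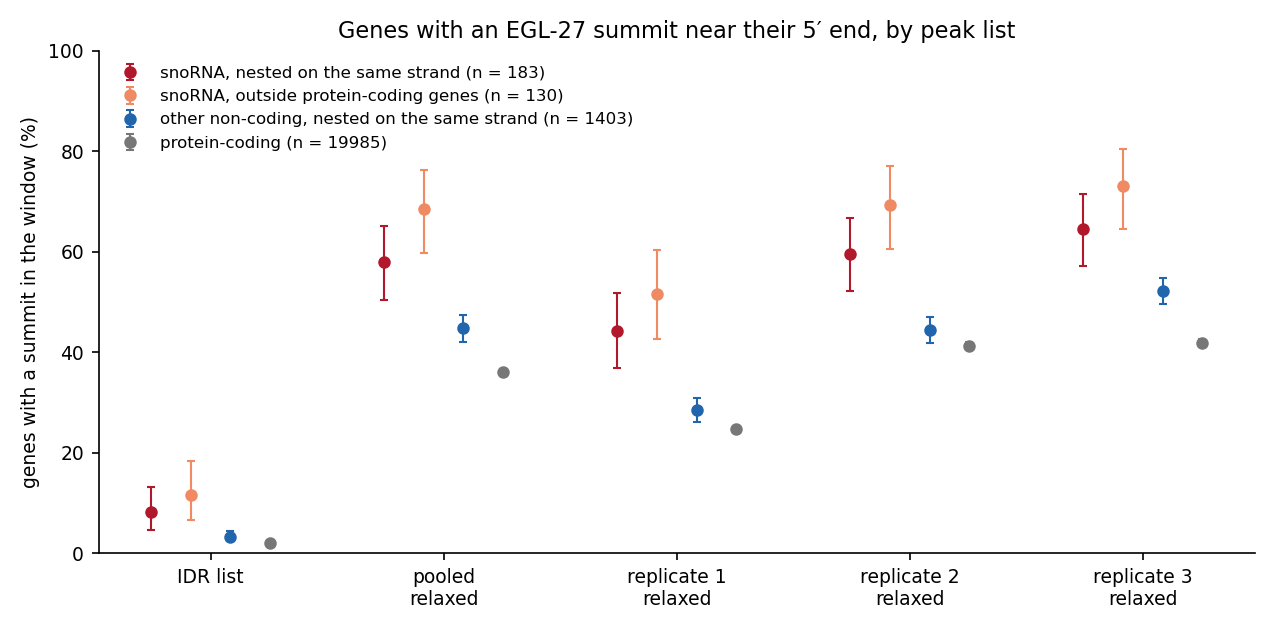
Share of genes in percent with a summit in the window around their 5′ end, for each peak list and 4 gene classes, with bars for exact 95% binomial intervals. Nested snoRNA genes (8.2% in the IDR list, 57.9% in the pooled list) lie above protein-coding genes (2.01% and 36.0%) and below snoRNA genes outside protein-coding genes (11.5% and 68.5%), with intervals that overlap the latter.

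Outside the host windows the members had shares close to those of other nested non-coding genes. A pooled summit in the member's window but outside every host window was found for 60 members (32.8%, interval 26.0 to 40.1), and for 32.4% of other nested non-coding genes. In replicates 1, 2 and 3 the members reached 24.0%, 32.8% and 38.8%, beside 20.3%, 32.3% and 37.4% for those genes. These pairs differ by less than the counting intervals of the members. A pooled summit was found for 43 of the 53 members that began inside a host 5′ window (81.1%), where member and host windows overlap. Of the 130 that began outside, 63 had one (48.5%). Members in introns had one more often than members that overlap an exon, with 89 of 143 (62.2%) and 17 of 40 (42.5%). All 15 members with an IDR summit were in the intron class.

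Within the window, pooled summits were most frequent just in front of the snoRNA. The pooled list gave 144 pairs of a summit and a member, and 24 of these (16.7%) fell in the last 100 bp before the 5′ end. The other bins of 100 bp held 3 to 13 pairs, with a median of 8.5. Outside the host windows 16 of 76 pairs (21.1%) fell there, and the other bins held 1 to 9. Single replicates showed this unevenly. The last 100 bp were the fullest bin in replicate 3, with 23 pairs where the others held 3 to 18. In replicate 1 they held 10, equal to the bins that start at -400 and -200 bp, so they did not stand out. In replicate 2 they held 11, fewer than the 17 in the first 100 bp after the 5′ end. SnoRNA genes outside protein-coding genes had 31 of their pooled pairs (26.5%) in the last 100 bp, and those nested on the opposite strand had 6 (22.2%). At protein-coding genes that bin held 805 pairs (9.27%), and the bin before it was the fullest with 969.

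**Figure D4:**
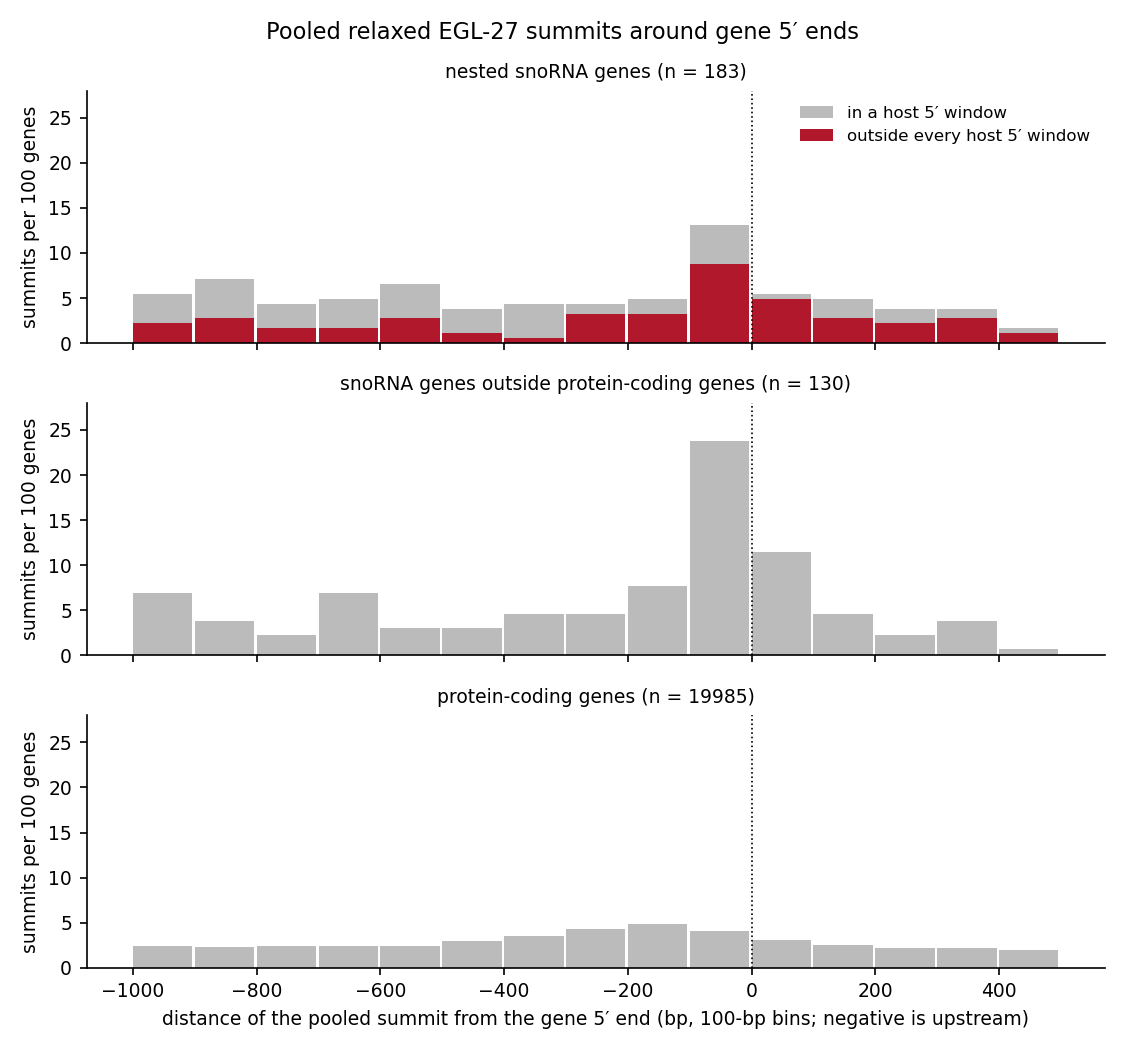
Pooled relaxed summits per 100 genes in bins of 100 bp around the 5′ end of nested snoRNA genes, snoRNA genes outside protein-coding genes and protein-coding genes, with the summits of nested genes outside every host window in red. The last 100 bp hold 24 pairs for nested genes, 16 of them outside host windows, and 31 for snoRNA genes outside protein-coding genes.

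Within 200 bp on either side of the 5′ end, snoRNA genes outside protein-coding genes had a pooled summit more often than the members. A pooled summit lay there for 49 members (26.8%, interval 20.5 to 33.8), for 59 of 130 snoRNA genes outside protein-coding genes (45.4%, interval 36.6 to 54.3) and for 15 of 33 nested on the opposite strand (45.5%). Other nested non-coding genes had 20.1% (interval 18.0 to 22.3), protein-coding genes 13.9% and all genes 16.0%. The interval of the members overlaps that of the other nested genes. In replicates 1, 2 and 3 the members reached 16.4%, 21.9% and 26.8%, and the other nested genes 14.2%, 17.5% and 24.9%. IDR summits that close were found for 4 members (2.19%, interval 0.599 to 5.5), beside 2.0% of the other nested genes.

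Each of the 24 members with a pooled summit in the last 100 bp had a relaxed summit within 200 bp in at least 1 replicate. In 17 members this was so in at least 2 replicates and in 6 members in all 3. Replicate 1 gave 11 of them, replicate 2 gave 16 and replicate 3 gave 20. The 6 are M106.6, ZK994.7, D1046.6, C08D8.3, F01D5.12 and F55A11.10. C08D8.3, on chromosome V in C08D8.1, had the highest pooled signal of the members without an IDR summit, 30.8 at rank 749, just past the end of the IDR list. That summit lay 27 bp upstream of the snoRNA and 3322 bp downstream of the host 5′ end. The replicate signals were 2.75 at 73 bp, 10.1 at -105 bp with a second of 7.11 at 135 bp, and 10.1 at 35 bp. The replicates therefore bracketed the snoRNA start rather than sharing 1 position.

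The next members by pooled signal differed in where the peak stood. C16D9.11, in the receptor tyrosine kinase gene rol-3 on chromosome V, had a pooled signal of 28.8 (rank 882) at 20 bp, 9460 bp from the host 5′ end. Replicate 1 had no summit in the window, replicate 2 had one of 7.45 at 64 bp and replicate 3 one of 17.6 at -5 bp. C56G2.20, in akap-1, which encodes an anchoring protein of protein kinase A, had 29.2 (rank 845) at 307 bp, 3775 bp before an internal host 5′ end. The nearest replicate 2 summit had 18.7 at 321 bp and was in the top list, and replicate 1 had only 3.45 at 76 bp. Replicate 3 had 11.1 at 118 bp and a weaker summit of 6.00 at 328 bp, neither in its top list. F28D1.13, in the ribosomal protein gene rps-23 on chromosome IV, had 28.9 (rank 871) at -658 bp, 260 bp upstream of the host 5′ end. This summit also lay in the 5′ window of the neighbouring gene dpm-3, and a weaker pooled summit of 13.8 lay at 287 bp. Replicate 1 had 4.19 at -386 bp and replicate 2 had 13.2 at -663 bp. Replicate 3 had 8.18 at -744 bp and 10.2 at 176 bp, so the replicates differed in place. Y37E3.20, in pcyt-2.1, had 30.6 (rank 757) at 70 bp, in front of an internal host 5′ end. Its replicate 1 signal of 8.91 and replicate 3 signal of 24.5 were in the top lists, at -128 and 138 bp.

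Members of 1 host could differ in their summits, as in nol-56, or not, as in top-2. The host with the most members was nol-56, with 4, which encodes a core protein of box C/D snoRNA particles. Only K07C5.11, which begins 142 bp from the host 5′ end, had a summit in the pooled list and in all 3 replicates. The other 3 members of nol-56 began 1116 to 2066 bp away and had a relaxed summit in replicate 3 alone. In top-2, which encodes a DNA topoisomerase, an IDR summit of signal 35.8 lay 269 bp upstream of the host 5′ end. Its 3 members, K12D12.6, K12D12.7 and K12D12.8, began 1312 to 1483 bp away and had no summit in the window in any list. By chromosome, IDR summits were found for 4 of 35 members on II, 5 of 38 on III, 5 of 28 on IV and 1 of 36 on V. None was found for 36 members on chromosome I and 10 on X, where 22 and 3 members had a pooled summit. The share of all genes on each chromosome was not counted, and some members on III and IV share a summit. The spread over chromosomes is therefore not a result about the members.

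Genes for the proteins that work with snoRNAs were looked at in the same way, by the 5′ window of the protein-coding gene. Of 10 snoRNA particle and assembly proteins 2 had an IDR summit and 10 a pooled summit. The 2 were fib-1 (41.7), which encodes the methyltransferase fibrillarin, and Y48A6B.3 (35.9), a homologue of the H/ACA protein NHP2. The pooled signals of nol-56 (27.6), nol-58 (23.9) and nola-3 (23.5) followed, and dkc-1, which encodes the pseudouridine synthase, had 17.6. Of 15 genes for RNA polymerase III and small RNA gene transcription 0 had an IDR summit. A pooled summit was found for 3 of them, rpc-1 (15.4), tftc-1 (11.9) and snpc-3.4 (9.75). Protein-coding genes as a whole reached 2.22% and 39.2% when every annotated 5′ end is counted.

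The sequence around the 12 IDR summits lacked GAGAGA, a short motif that was frequent at other EGL-27 summits. It was searched on both strands within 50 bp of the summit, and 0 of 12 has an exact 95% upper limit of 26.46%. It was present at 291 of 692 other IDR summits (42.1%), and at 136 of the 361 of these in protein-coding promoter windows (37.7%). CTGCGTCTC was also at 0 of 12 and at 107 of 692 others (15.5%), a share that lies under the same upper limit, so a difference in this motif was not detectable with 12 summits. In the pooled list GAGAGA was present at 6.92% of 130 summits in member windows and at 11.0% elsewhere, and CTGCGTCTC at 3.08% and 1.9%. From 250 bases before to 50 bases after the 5′ end, 22.4% of members held GAGAGA, against 21.8% of protein-coding 5′ ends, and 20.8% held TGATAA, against 30.3%.

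A B box of RNA polymerase III genes lay directly in front of a small group of members. The motif GTTCNANNC was found on either strand of the same window for 30 members (16.4%, interval 11.3 to 22.6) and for 8.82% of protein-coding genes. The share was 15.6% of other nested non-coding genes, 20.0% of snoRNA genes outside protein-coding genes and 21.2% of those nested on the opposite strand, so in this wider window the members did not stand apart from other non-coding genes. On the strand of the gene it began in the last 30 bases before the 5′ end in 13 members (7.1%), and in no other upstream bin of 30 bases did more than 1.09% of members hold one. The share in the last 30 bases was 12.3% for snoRNA genes outside protein-coding genes, 12.1% for those nested on the opposite strand and 0.451% for protein-coding genes. In 11 of the 13 members an A box stood 30 to 60 bases before the B box. The same was so in 12 of 16 such snoRNA genes outside protein-coding genes, in 4 of 4 nested on the opposite strand and in 0 of 90 protein-coding genes. The A box was searched as TNGNNNA, then 2 or 3 further bases, then GG, a form chosen after these sequences were seen. Matches are descriptions of letters and do not show that a site is used.

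**Figure D5:**
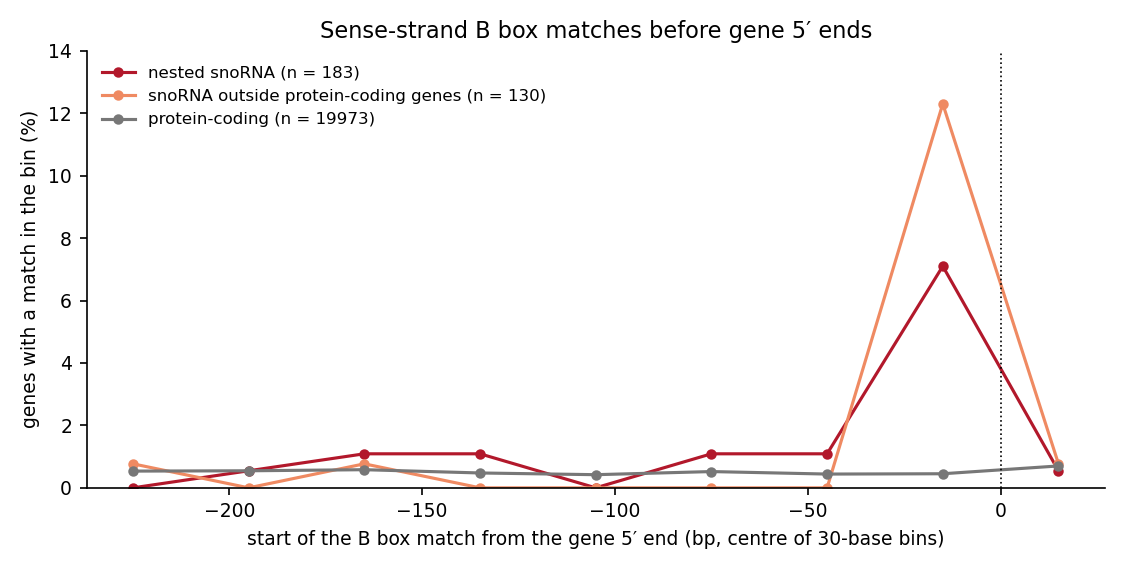
Share of genes in percent with a B box match starting in each bin of 30 bases before the gene 5′ end, on the strand of the gene, for nested snoRNA genes, snoRNA genes outside protein-coding genes and protein-coding genes. The last bin before the 5′ end reaches 7.1%, 12.3% and 0.451%, and the other upstream bins stay at or below 1.09% for members.

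The following 6 members combined both boxes with a pooled summit within 200 bp. Each line gives 80 bases of ce11, 70 upstream and 10 of the snoRNA gene, on the strand of the gene, with the A box and the B box in capitals. The spans are chrII:10840247-10840326 on the plus strand for M106.6, chrII:6248647-6248726 on the plus strand for T24H7.6, chrIV:12086639-12086718 on the plus strand for F11A10.9, chrIV:2408626-2408705 on the minus strand for Y38F2AR.14, chrV:11782922-11783001 on the plus strand for F55A11.10 and chrV:19643178-19643257 on the minus strand for Y43F8C.22.
M106.6: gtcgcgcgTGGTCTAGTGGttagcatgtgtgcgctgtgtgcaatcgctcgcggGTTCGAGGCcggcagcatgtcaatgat
T24H7.6: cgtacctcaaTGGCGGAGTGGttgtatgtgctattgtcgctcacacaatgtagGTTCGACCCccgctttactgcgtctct
F11A10.9: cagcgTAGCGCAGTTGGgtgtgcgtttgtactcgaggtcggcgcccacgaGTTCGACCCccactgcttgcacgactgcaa
Y38F2AR.14: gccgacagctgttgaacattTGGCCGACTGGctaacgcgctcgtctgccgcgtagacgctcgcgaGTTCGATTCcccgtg
F55A11.10: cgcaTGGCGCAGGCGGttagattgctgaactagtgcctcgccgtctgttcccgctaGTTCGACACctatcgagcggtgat
Y43F8C.22: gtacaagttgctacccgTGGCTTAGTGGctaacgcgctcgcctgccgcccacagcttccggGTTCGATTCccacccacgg
In all, 6 of the 13 members with a B box in the last 30 bases had a pooled summit within 200 bp (46.2%), against 43 of 170 other members (25.3%). In the main window, from 1000 bp upstream to 500 bp downstream, 8 of the 13 had one (61.5%). That is close to the 57.9% of all members. M106.6 was the single one of the 13 with an IDR summit. These counts are too small to rank the groups, and no test was made.

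The box elements of the snoRNAs themselves divided the members only in part. A C box (NTGATGA) in the first 25 bases with a D box (CTGA) in the last 25 was found in 7 members, of which 0 had an IDR summit and 5 a pooled summit. ACA 3 bases before the end, without that pair, was found in 45 members (24.6%), of which 8 had an IDR summit (17.8%) and 32 a pooled summit (71.1%). These 8 members shared 6 IDR summits, and 5 of the 8 lay in ribosomal protein hosts, so the box class and the host group cannot be told apart here. Of the other 131, 7 had an IDR summit (5.34%) and 69 a pooled summit (52.7%). Only exact matches in these spans were counted, so the last class is no snoRNA class of its own. M106.6, for example, had a D box in the last 25 bases and an IDR summit, but no exact C box. The 7 members with both boxes may therefore not be all the box C/D members.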

How the data were processed

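EGL-27 ChIP-seq peak lists of 3 replicates were used in build ce11, and their depth is unknown here. The deposited signal of each peak and its summit came from the authors' caller. Per the deposited library notes, lists were called per replicate and on the pooled replicates against 1 control alignment, not analysed here. The ce10 lists were not used. As for the aligner, peak caller and IDR threshold, they are not given in the sources used here.

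Members, hosts and 5′ ends came from Ensembl release 115 (WBcel235). Summits were counted from 1000 bp upstream to 500 bp downstream of a gene 5′ end, and a host window is the same span around any annotated host transcript 5′ end. The top list of a replicate holds its 705 highest signals. No test was made, because the series has 1 group of samples and no second condition, and shares of gene classes are set side by side for each replicate. Intervals are exact (Clopper-Pearson) 95% binomial intervals that cover counting error only. The members, gene lists and motifs were chosen with earlier results of these data known. The genes named are every member with an IDR summit, the 5 further members of highest pooled signal, egl-27 and the hosts with the most members. Of 5 such hosts only the 3 with more than 2 members are named by that rule, because 20 hosts tied at 2. Other names, such as hsp-1, eef-1G and alg-1, the members with both boxes, and those among the 24 nearest summits, were chosen after their values were seen. Alternatives were other windows, peak overlap, either strand, other host 5′ ends, other list lengths and leaving out each replicate. Scripts were tested on simulated data, in python 3.11.15 with numpy 2.4.6, pandas 2.3.3, scipy 1.17.1 and matplotlib 3.10.9.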

Additional observations from a re-analysis of the deposited data

How the results depend on the processing

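The count of members with an IDR summit, 15, followed the window: it was 6 with 500 bp upstream and 250 bp downstream, 23 with 2000 bp upstream and 4 with 200 bp on either side. In the same order, members with a relaxed summit in all 3 replicates, 50, became 18, 81 and 9, and members with a top-list summit in at least 2 replicates, 13, became 5, 18 and 3. The pooled count of 106 became 49 with 200 bp on either side. The 352 IDR peaks of highest signal left 9 members with a summit and 1 of them outside host windows. The 2 members outside host windows became 6 when only the outermost host 5′ end was counted, and 5 when the summit had to be nearer to the snoRNA than to any host 5′ end. They stayed 2 with the windows of any protein-coding gene. Top lists of 1410 peaks gave 20 in place of 13. Counting peak overlap, or nesting on either strand, changed no count by over 1.5 times. Without 1 replicate, an IDR summit had to lie in the top lists of both others, and the counts were 6 to 11 for IDR summits and 0 to 1 outside host windows. The latter was 0 without replicate 3. A pooled summit then had to lie inside a relaxed peak of both others, with 34 to 57 members. Relaxed summits in both remaining replicates gave 59 to 81, and top lists of both gave 6 to 12. These rules are stricter or looser by construction. No paired analysis was possible because there is no second group of samples to pair with. Members and comparison genes were read in the same replicates, and their shares stand side by side in the report without a test. Counting ubl-1 and Y37E3.8 as ribosomal protein hosts, chosen after seeing the data, left 6 members with an IDR summit. Depth is unknown here, so a missing relaxed summit does not show that EGL-27 was absent.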
